A study of Mus musculus with 18 samples.

Results

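Titin, encoded by Ttn (ENSMUSG00000051747), is the giant protein that runs from the Z-disc to the M-band of the muscle sarcomere, and it serves as a scaffold and a molecular spring. The data examined here are the counts of read pairs in all 392 Ttn exon bins, out of 391858 bins in the deposited count files. Bins were chosen by the gene identifier alone, and none was chosen for how it moved. A bin is a stretch of exon that is cut wherever a transcript of the annotation starts or ends an exon. Ttn lies on the minus strand of chromosome 2 (GRCm38), so bin 1 is the 3′ end and bin 392 the 5′ end. All 392 bins matched the flattened exons of the 25 Ttn transcripts in GENCODE M21. The longest coding transcript, Ttn-203, has 347 exons, and exons are numbered along it from the 5′ end.

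The spring of titin lies in the I-band, where immunoglobulin-like domains and the PEVK region, rich in proline, glutamate, valine and lysine, are included to different degrees in different muscles. The Z-disc end carries the Z-repeats, which bind alpha-actinin, and the M-band end carries the kinase domain and the M-band exons, of which M-band exon 5 is alternatively spliced. In myotonic dystrophy, RNA with expanded CUG repeats sequesters MBNL proteins, splicing factors that bind short motifs with GC between pyrimidines.

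The study compared gastrocnemius and quadriceps of 3 WT mice (FVB), 3 HSA-LR mice and 3 HSA-LR mice given Pip6a-PMO, 18 libraries in all, from animals of 20 weeks. HSA-LR mice carry a human skeletal actin transgene with expanded CTG repeats that is expressed in skeletal muscle, and Pip6a-PMO is a CAG-repeat morpholino oligomer joined to a cell-penetrating peptide and injected into a vein. WT and untreated HSA-LR mice are labelled untreated, and the treatment protocol names saline. The same mouse number in both muscles stands for the same animal, so the muscles share mice.

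Library totals were 98916844 to 143135976 counts, of which Ttn held 0.615% to 1.02%. Of the 7 skeletal muscle marker genes, Acta1 stood at 32660 to 40190 CPM in every library, and of the 6 heart markers Nppa, Nppb and Myl7 stood at most at 0.0842 CPM while Myh6, Sbk2 and Myl4 reached 245, 237.3 and 9.86 CPM. The heart markers summed to 82.4 to 147.7 CPM in WT, 161.5 to 254.3 in HSA-LR and 178.1 to 488.9 in treated gastrocnemius and to 27.4 to 52.3, 115.1 to 137.3 and 95.2 to 150.1 CPM in quadriceps, and their part in the results was not tested. Mice are labelled male except WT mouse 2, labelled female, but summed Y-linked genes stood at 1.15 and 1.43 CPM in WT mouse 3 and at 154 and 181.5 CPM in WT mouse 2, so 2 WT mice went against their labels. Results are given without these mice below. Treated mouse 3 had the gastrocnemius library with the lowest 5′ to 3′ coverage over 3305 genes, at -1.85 on the log2 scale, against -1.45 to -1.23 in the other libraries. In gastrocnemius this coverage was -1.452, -1.368 and -1.431 in WT and -1.327, -1.333 and -1.325 in HSA-LR mice, higher in HSA-LR without overlap. It entered only as a covariate in an alternative, and its part in the gastrocnemius results was not tested.

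The sequences are shown because the largest changes along Ttn centre on exon 11 and the introns after exons 11 and 12, and exons 10 and 13 lie near it and did not pass the test in any contrast between groups. Capitals mark the motifs searched, which were TGCT or TGCC and also CGCT or CGCC, on the transcript strand alone, where overlapping matches share capitals. Exon 11, the 138-base bin 379, lies at chr2:76965777-76965914 in coding sequence. Exon 10 (bin 380) lies at chr2:76967054-76967185, and exon 13 (bin 374) at chr2:76964475-76964612. The first 150 bases of the intron after exon 11 (bin 378) lie at chr2:76965627-76965776. All are on the minus strand of GRCm38 and are read from the GENCODE M21 transcripts.
Exon 10: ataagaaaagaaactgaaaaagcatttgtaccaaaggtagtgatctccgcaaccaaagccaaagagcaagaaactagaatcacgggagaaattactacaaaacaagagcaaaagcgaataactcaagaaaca
Exon 11: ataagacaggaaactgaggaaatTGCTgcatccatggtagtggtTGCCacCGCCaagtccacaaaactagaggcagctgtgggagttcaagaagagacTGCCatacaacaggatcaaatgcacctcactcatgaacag
Exon 13: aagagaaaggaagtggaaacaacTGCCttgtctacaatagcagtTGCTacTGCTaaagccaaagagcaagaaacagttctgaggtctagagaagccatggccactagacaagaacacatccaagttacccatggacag
Intron after exon 11: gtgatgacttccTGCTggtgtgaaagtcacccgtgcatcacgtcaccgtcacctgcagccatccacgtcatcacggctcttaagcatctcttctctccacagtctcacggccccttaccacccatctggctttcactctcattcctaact
Exon 11 held 4 motifs and exon 10 held 0. Among the 14 Ttn bins within 8 bases of the length of exon 11, 12 (85.7%) held at least 1 motif, the median was 2, and 3 bins, exon 11 among them, held 4 or more. Exon 11 and exon 13 were identical at 82 of 138 positions (59.4%). A match is a description of these letters and not a binding site.

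Exon 11 was nearly lost from Ttn in HSA-LR mice and partly returned in treated mice. In gastrocnemius, exon 11 counted 152, 158 and 146 pairs in WT mice 1 to 3, 16, 13 and 30 in HSA-LR mice, and 63, 84 and 63 in treated mice. In quadriceps the counts were 128, 147 and 129 in WT, 18, 28 and 24 in HSA-LR and 80, 96 and 108 in treated mice. No group overlapped another in either muscle. Exon 10 and bin 377, nearly all of exon 12, which flank it, counted 163 to 249 and 140 to 210 in gastrocnemius, so the 2 flanks gave a measure of each library. As a percentage of the mean of these flanks, exon 11 stood at 78.5% ± 12.5 (SD, n = 3) in WT, 10.6% ± 5.67 in HSA-LR and 39.5% ± 6.76 in treated gastrocnemius, and at 76.7% ± 4.44, 12.8% ± 1.9 and 46.8% ± 6.3 in quadriceps. The exact permutation test, two-sided, gave P = 0.1 for each of these contrasts, which is the smallest that 3 mice against 3 allow.

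The test of each bin against its neighbours asked for change beyond the coverage of up to 10 bins on each side, in 1 edgeR quasi-likelihood fit over all genes' bins. Of the 343 Ttn bins that passed the filter on low counts in gastrocnemius, 13 (5 up and 8 down in HSA-LR mice relative to WT) were called at an adjusted P under 0.1, where 1.06% of all bins tested were called. Of 325 in quadriceps, 7 were called, 4 higher and 3 lower, against a background of 0.938%. The counts became 7 without HSA-LR mouse 3 in gastrocnemius and 4 without WT mouse 2 in quadriceps. On simulated counts 27.7% of this test's calls were false, and 15.3% of the calls with all neighbours, so single calls are uncertain. False calls were not split by size of change. Bins near an end of the gene, M-band exon 5 among them, had fewer neighbours. The other 49 Ttn bins in gastrocnemius and 67 in quadriceps had too few counts to test, 35 and 50 of them in the PEVK region. Relative to neighbours exon 11 fell by 2.63 ± 0.23 (SE) on the log2 scale in gastrocnemius (edgeR, adjusted P = 4.04e-05) and by 2.54 ± 0.17 in quadriceps (edgeR, adjusted P = 1.74e-06). Without WT mouse 2 or WT mouse 3 the values were -2.61 and -2.73 in gastrocnemius and -2.63 and -2.58 in quadriceps. Exon 10 did not pass the test in either muscle, with log2 differences of 0.11 and -0.10.

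The introns after exons 11 and 12 fell with exon 11 in HSA-LR mice. Bin 378, the intron after exon 11, and bin 375, the intron after exon 12, belong in the annotation to Ttn-207 alone, a transcript with retained introns. Bin 378 counted 214, 239 and 235 in WT, 29, 23 and 29 in HSA-LR and 82, 129 and 92 in treated gastrocnemius, and 176, 227 and 183, 37, 40 and 42, and 116, 135 and 180 in quadriceps. Bin 375 counted 330, 301 and 344, then 36, 29 and 33, then 178, 200 and 180 in gastrocnemius, and 282, 358 and 282, then 52, 43 and 69, then 162, 154 and 252 in quadriceps. The groups of bin 375 did not overlap, and those of bin 378 overlapped only between WT and treated quadriceps (176 against 180). Relative to neighbours bin 378 fell by 2.81 ± 0.17 in gastrocnemius and 2.33 ± 0.18 in quadriceps, and bin 375 fell by 3.08 ± 0.16 and 2.50 ± 0.25 on the log2 scale (edgeR, adjusted P from 3.84e-07 to 7.39e-05). A pair that overlaps exon 11 and bin 378 was counted in each, so these bins are not independent of exon 11. Per kilobase, exon 11 had a median over libraries of 594 counts, bin 378 of 224 and bin 375 of 374, against 1230 to 1690 in exon 12, exon 13 and exon 10. The first 3 medians mix groups that differed. These bins ran from 94.2 to 1140, 42 to 436 and 60.7 to 749 per kilobase, lowest in HSA-LR and highest in WT libraries. Bin 373, the intron after exon 13 and also of Ttn-207, counted 136, 114 and 152 in WT and 51, 54 and 56 in HSA-LR gastrocnemius and fell by 1.20 ± 0.20 on the log2 scale relative to neighbours (edgeR, adjusted P = 0.0111). In quadriceps it counted 107, 100 and 113 against 60, 63 and 86 and did not pass (-0.59, adjusted P = 0.759), and the difference between muscles did not pass either (edgeR interaction, adjusted P = 1).

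**Figure D1:**
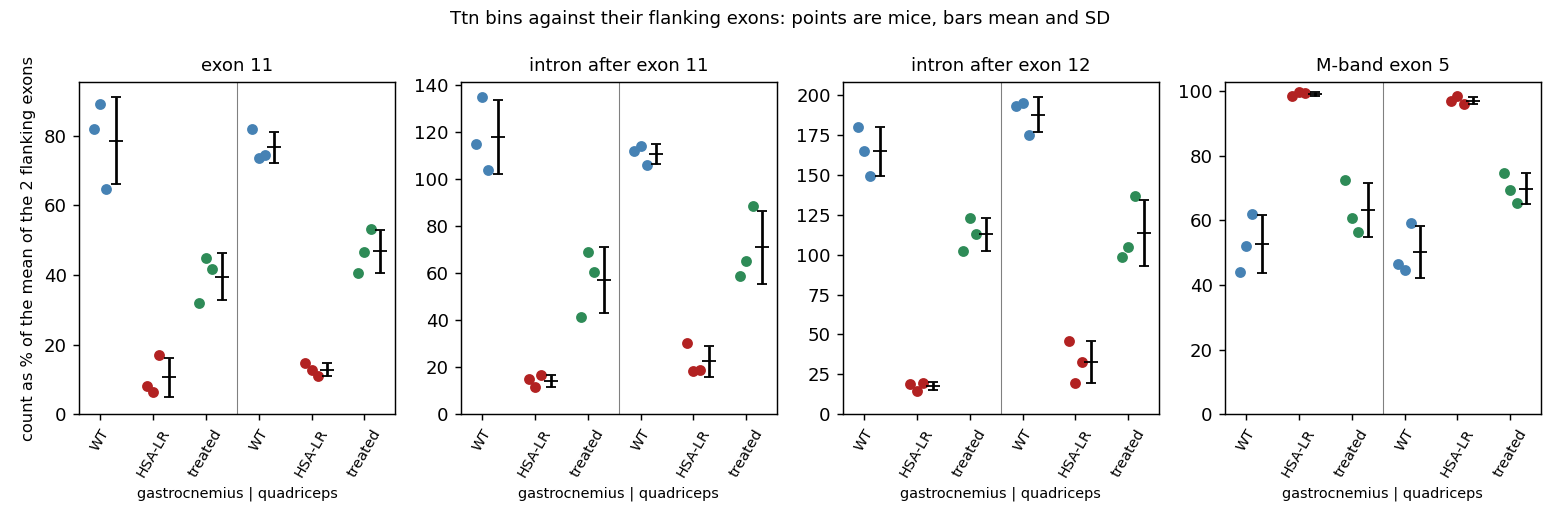
Counts of 4 Ttn bins as a percentage of the mean of the nearest long exons on each side, per mouse, with group mean and SD beside the points. Counts are not corrected for bin length, so the percentage is not a rate of inclusion. Exon 11 and the introns after exons 11 and 12 were lowest in HSA-LR mice, M-band exon 5 was highest there, and in treated mice each mean lay between those of the WT and the HSA-LR mice.

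In treated against untreated HSA-LR mice, 6 Ttn bins were called in each muscle, where 0.699% and 0.707% of all bins were called in gastrocnemius and quadriceps. Exon 11 rose by 1.81 ± 0.26 on the log2 scale in gastrocnemius and 1.78 ± 0.19 in quadriceps (edgeR, adjusted P = 0.00466 and 0.00016). Bin 378 rose by 1.91 and 1.61 and bin 375 by 2.542 and 1.501, all past the test. Against WT mice, bin 378 alone was called of 343 bins in treated gastrocnemius (-0.90 ± 0.13, edgeR adjusted P = 0.0633; background 0.016%), and no Ttn bin was called there when WT mouse 1 (bin 378, adjusted P = 0.29), WT mouse 2 (adjusted P = 0.316), treated mouse 1 or any 1 HSA-LR mouse was left out. In quadriceps 0 of 325 bins were called (background 0.0242%) by edgeR, with 25 at an unadjusted P under 0.05, 2 by DESeq2 and 0 by limma, and 1 was called without WT mouse 3 and 3 without treated mouse 3. Exon 11 stood 0.83 ± 0.18 below WT in gastrocnemius and 0.76 ± 0.13 below in quadriceps on the log2 scale (edgeR, adjusted P = 0.545 and 0.156).

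M-band exon 5, the 303-base bin 4 and exon 346, the last but one, was used more in HSA-LR mice. It lies in coding sequence at chr2:76705670-76705972 and counted 37192, 48024 and 57656 in WT, 84074, 82507 and 81952 in HSA-LR and 64612, 52402 and 29942 in treated gastrocnemius. In quadriceps it counted 32386, 34913 and 42128, then 59679, 67731 and 73216, then 50148, 51179 and 55218. As a percentage of the mean of exon 345 and the bin on its 3′ side, it stood at 52.6% ± 9.07 (SD, n = 3) in WT, 99.1% ± 0.666 in HSA-LR and 63.1% ± 8.34 in treated gastrocnemius. In quadriceps it stood at 50.2% ± 7.94, 97% ± 1.17 and 69.8% ± 4.72. WT and HSA-LR mice did not overlap in either muscle, and treated mice overlapped WT mice in gastrocnemius and lay above them in quadriceps. The 3 HSA-LR mice lay at 98.4% to 99.7% in gastrocnemius and at 96% to 98.3% in quadriceps. These are counts without correction for length, and the flanks have 154 and 299 bases. The percentage compares groups and is not a rate of inclusion, so 100% does not stand for full inclusion.

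**Figure D2:**
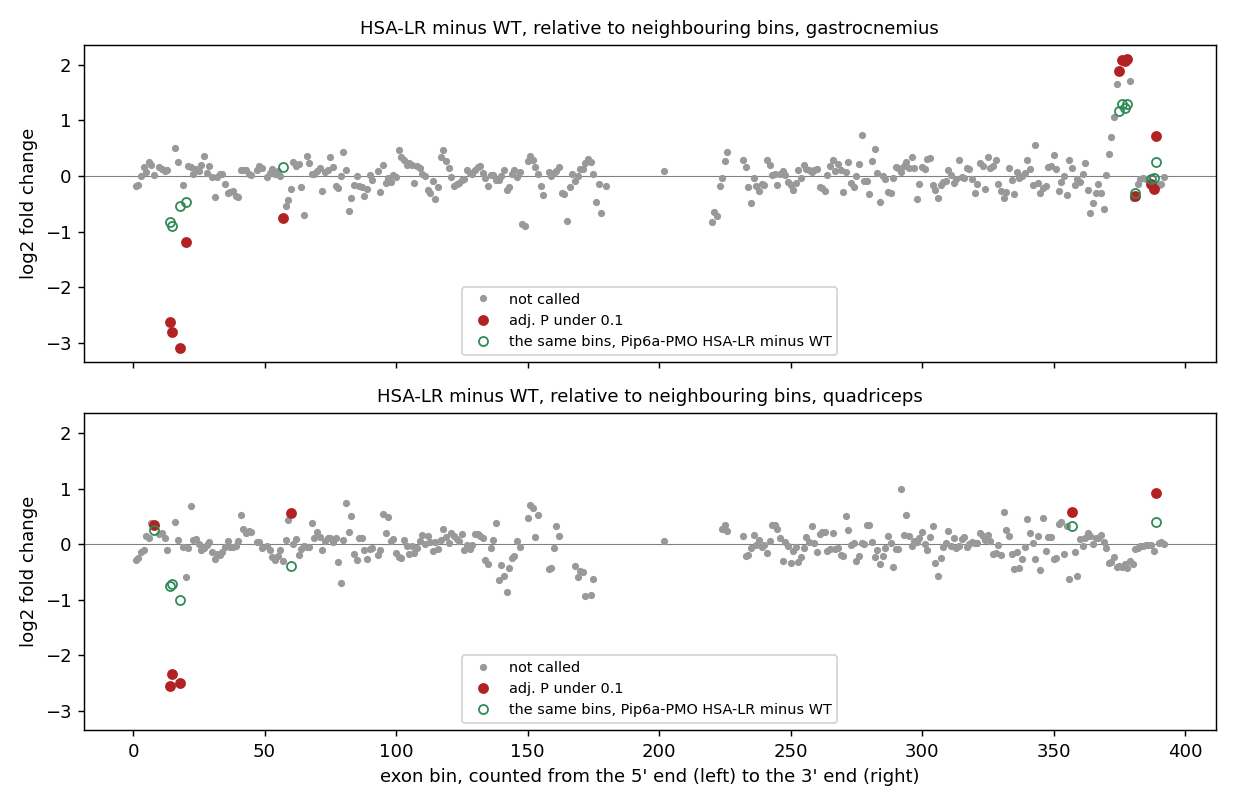
The log2 change of every tested Ttn bin in HSA-LR against WT mice relative to its neighbours, in gastrocnemius and quadriceps, with positions counted from the 5′ end at the left, the reverse of the bin numbers. Red points passed adjusted P under 0.1, and open green circles give the same bins in treated against WT mice. Exon 11 and the introns after exons 11 and 12 lie below -2 in both muscles, and M-band exon 5 lies above 0.5.

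Relative to neighbours M-band exon 5 rose by 0.72 ± 0.12 in gastrocnemius and 0.92 ± 0.11 in quadriceps on the log2 scale (edgeR, adjusted P = 0.00857 and 0.000338), and by 0.68 and 0.77 without WT mouse 2. Between treated and HSA-LR mice the value was -0.47 in gastrocnemius (adjusted P = 0.147) and it fell by 0.52 ± 0.11 in quadriceps (edgeR, adjusted P = 0.0459). The HSA-LR call was lost under 4 alternatives in each muscle, none of them the omission of a mouse, although the size kept its sign. Among these were 25 neighbours on each side (0.50 and 0.51, edgeR, adjusted P = 0.258 and 0.97). A robust estimate of the spread, added after the data were seen, also lost it (edgeR, adjusted P = 0.252 and 0.108). Exon 345 (bin 5) and exon 344 (bin 6), next to it on the 5′ side, were called lower in gastrocnemius, by 0.24 and 0.15 on the log2 scale (edgeR, adjusted P = 0.0126 and 0.049), with 62488, 68820 and 66756 pairs in WT and 61261, 59175 and 58380 in HSA-LR mice for exon 345. Bin 12, 11 bases annotated in Ttn-204 and Ttn-205 alone, fell by 0.37 relative to neighbours (edgeR, adjusted P = 0.0567), but its share of Ttn counts was 2.48% in HSA-LR and 2.49% in WT mice, and it counted 25909, 29247 and 26461 in WT and 28454, 28768 and 29895 in HSA-LR mice. In treated against HSA-LR gastrocnemius exon 345 was called higher, by 0.19 ± 0.04 on the log2 scale (edgeR, adjusted P = 0.0666). Of the bins called in HSA-LR mice, 4 were called in both muscles, 30.8% of the gastrocnemius and 57.1% of the quadriceps calls: M-band exon 5, bin 375, bin 378 and exon 11. The same share over the called bins of all genes is not given, so these percentages are not read as particular to Ttn. No Ttn bin passed the test of a different HSA-LR change between the muscles (0 of 342, background 0%; 22 at an unadjusted P under 0.05), where exon 11 differed by 0.11 ± 0.35 on the log2 scale.

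The reads lay overwhelmingly at the 3′ end. The 13 bins at the 3′ end, through exon 341, held 95.8% ± 0.0712 (SD, n = 3) of Ttn counts in WT gastrocnemius and 90.8% to 95.9% over all 18 libraries. Bin 2 of the last exon, 1047 bases of 3′ UTR, counted 182231 to 263878, and bin 3, with the stop codon, counted 69344 to 119117. Bin 1, 4 bases, counted 170 to 390. In HSA-LR against WT mice the log2 differences of bins 1, 2 and 3 were -0.03, -0.14 and -0.16 in gastrocnemius and 0.0033, 0.03 and 0.02 in quadriceps, and none passed. The longest bin, bin 45 (exon 309, 17106 bases), counted 461 to 2317 and differed by 0.17 and 0.12, and bin 391, exon 1, counted 108 to 257 and differed by -0.16 and -0.26, none past the test.

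**Figure D3:**
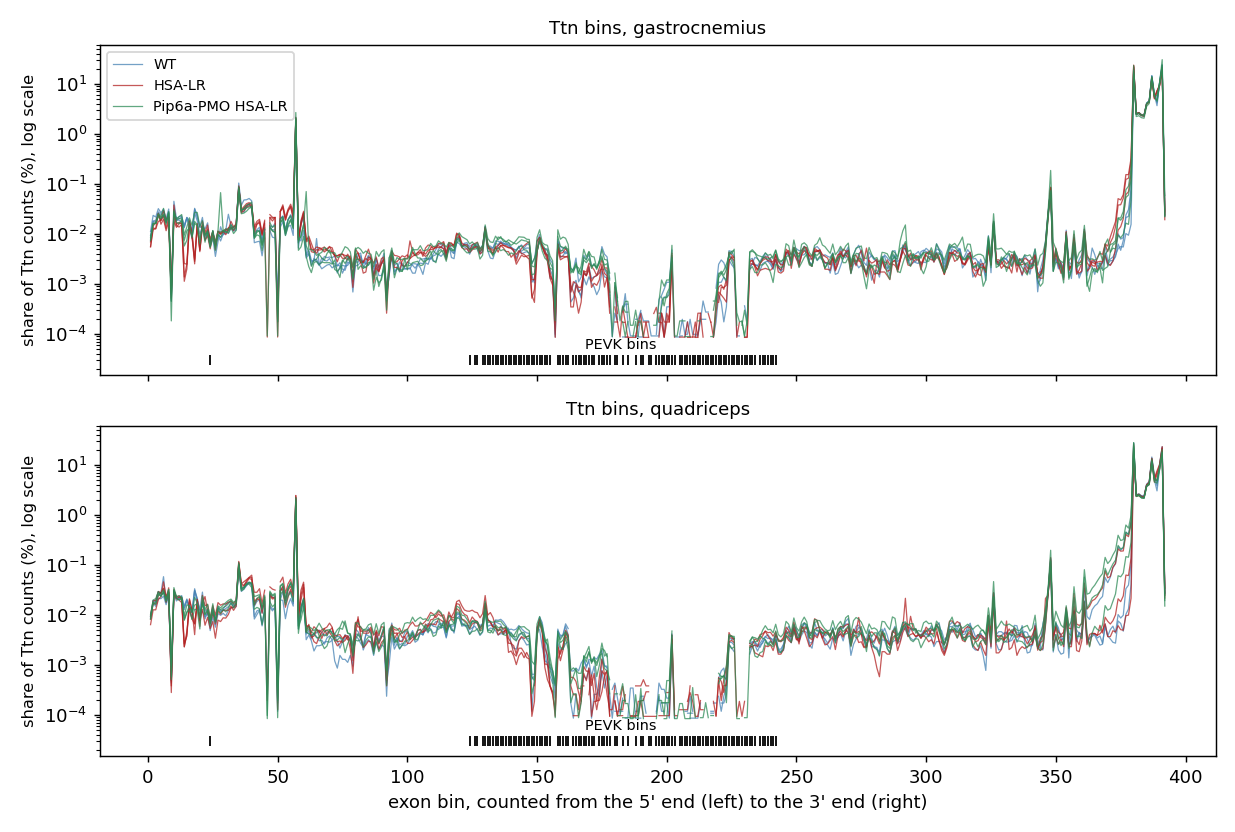
Each bin's share of Ttn counts on a log scale in 18 libraries, from the 5′ end at the left to the 3′ end at the right. Bins with 0 counts are not drawn, and ticks mark PEVK bins. The share is above 1% only in the bins at the 3′ end and in the novex-3 exon. Many of the lowest shares lie in PEVK bins, and some lie in bins outside that region.

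**Figure D4:**
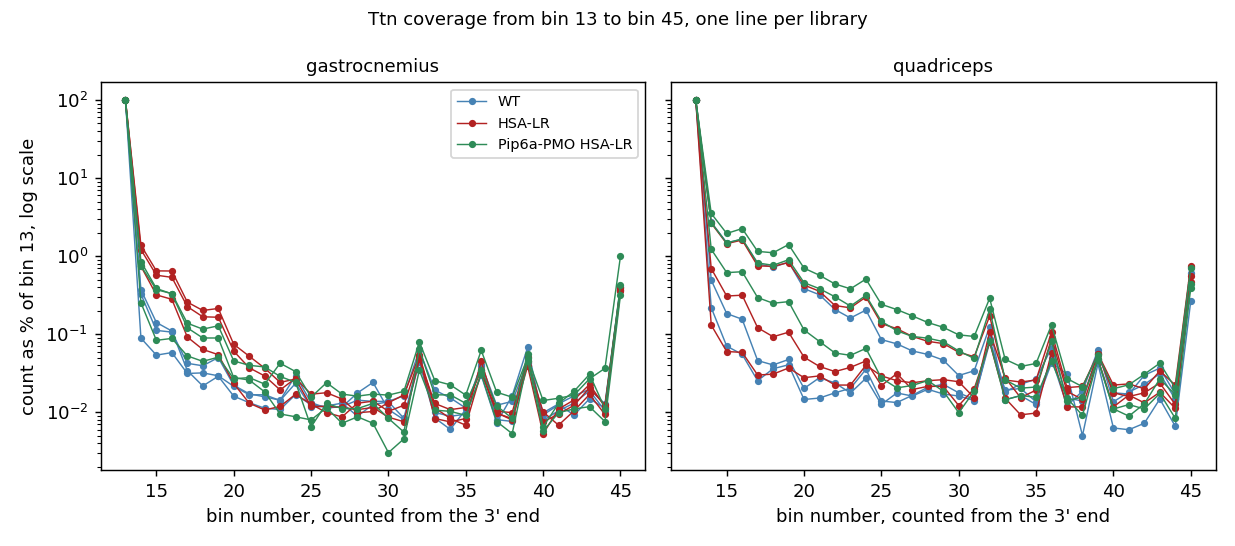
Counts as a percentage of bin 13 on a log scale in bins 13 to 45, counted from the 3′ end, with a line for each library. Just 5′ of bin 13, at bin 14, the libraries run from 0.219% to 2.71% of bin 13 in WT quadriceps, from 0.131% to 2.64% in HSA-LR quadriceps and from 1.22% to 3.52% in treated quadriceps.

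Just 5′ of bin 13, which is a single exon of 5437 bases (exon 341), coverage fell steeply and differed between libraries of one group. Bin 14 counted 345, 8624 and 975 in WT quadriceps and 170, 7133 and 1421 in HSA-LR quadriceps, so the libraries of mouse 2 stood highest in both groups. In gastrocnemius it counted 662, 921 and 170 in WT and 1872, 3207 and 3822 in HSA-LR mice. Bins 15 to 18 (exons 339 to 336) were 4 of the 5 bins called higher in HSA-LR gastrocnemius, at 1.88 to 2.10 on the log2 scale, and in quadriceps they did not pass. Bin 15 counted 227, 351 and 103 in WT and 804, 1503 and 1796 in HSA-LR gastrocnemius. Over other genes, too, 5′ to 3′ coverage stood higher in HSA-LR than in WT gastrocnemius, as given above. The part in these calls of coverage that falls off differently between libraries was not tested.

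The 98 bins at the 5′ end (bins 295 to 392) held 3.02% to 3.31% of Ttn counts in WT, 3.13% to 3.30% in HSA-LR and 2.99% to 3.79% in treated gastrocnemius. In quadriceps they held 3.23% to 3.42%, 3.84% to 3.90% and 3.36% to 3.49%, and HSA-LR mice lay above both other groups (difference from WT 0.528 percentage points, exact permutation P = 0.1, the smallest possible). Most of these counts lay in bin 336, the novex-3 exon of 6520 bases, the last exon of the short transcript Ttn-202 and in no other transcript of the annotation. It counted 20137, 21629 and 23461 in WT, 24625, 23732 and 22898 in HSA-LR and 22537, 22157 and 17830 in treated gastrocnemius, so the groups overlapped. Exon 46, of 2646 bases, the exon that follows in Ttn-203 and Ttn-201 and that Ttn-202 lacks, counted 44 to 97. Per kilobase the novex-3 exon had a median over libraries of 3360 counts and exon 46 of 26.3. The novex-3 exon is the 3′ end of its transcript, and exon 46 lies far from the 3′ end of its own. Since reads lay overwhelmingly at the 3′ end, these values do not give the relative amounts of the short and long transcripts.

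Relative to neighbours the novex-3 exon was called in HSA-LR gastrocnemius, where it fell by 0.76 ± 0.15 (edgeR, adjusted P = 0.0303), and in treated against HSA-LR gastrocnemius, where it rose by 0.91 ± 0.15 (edgeR, adjusted P = 0.012). As a share of Ttn counts it stood at 1.99% ± 0.13 in WT, 2.03% ± 0.0875 in HSA-LR and 2.21% ± 0.379 in treated gastrocnemius, so in gastrocnemius the share itself differed by less than the spread between mice. In quadriceps it stood at 2.06% ± 0.156, 2.37% ± 0.133 and 2.04% ± 0.207, and HSA-LR mice lay above WT mice without overlap (exact permutation P = 0.1). As a percentage of exons 1 to 33, the novex-3 exon stood higher in HSA-LR than in WT gastrocnemius, the opposite direction to the call, at 309% ± 10.2 against 268% ± 23.9 without overlap (exact permutation P = 0.1). Its neighbours stood higher in HSA-LR mice. Exons 34 to 45, just 5′ of it, summed to 25.3% ± 7.71 of exons 1 to 33 in WT, 46.9% ± 3.78 in HSA-LR and 26.3% ± 4.46 in treated gastrocnemius (HSA-LR against WT, exact permutation P = 0.1). In quadriceps the same sum was 32.6% ± 9.27, 45% ± 8.32 and 42.5% ± 9.16, and the groups overlapped. On the 3′ side, exon 48 (bin 333) rose in HSA-LR quadriceps (0.56 ± 0.13, edgeR adjusted P = 0.0736) and fell in treated against HSA-LR quadriceps by 0.95 ± 0.13 (edgeR, adjusted P = 0.00155), with 180, 237 and 177 pairs in WT, 355, 437 and 367 in HSA-LR and 222, 242 and 168 in treated mice. Exon 47 (bin 334) fell by 0.998 ± 0.18 in treated against HSA-LR quadriceps (edgeR, adjusted P = 0.0201). Exon 318 (bin 36) rose by 0.58 in HSA-LR quadriceps, with 106, 137 and 97 pairs in WT and 115, 287 and 119 in HSA-LR mice, and its call was lost without WT mouse 2 (edgeR, adjusted P = 0.112). Exon 6 (bin 385) rose by 0.35 ± 0.08 there (edgeR, adjusted P = 0.08). Exon 133 (bin 242), a PEVK exon, fell by 0.58 ± 0.12 relative to neighbours in treated against HSA-LR gastrocnemius (edgeR, adjusted P = 0.0664), while its mean share of Ttn counts was 0.0091% in treated and 0.00839% in HSA-LR mice. Bins 5, 6, 12, 15 to 18, 242, 334, 336 and 385 were named after their values were seen.

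PEVK exons, taken as bins in which at least 50% of the encoded residues are proline, glutamate, valine or lysine, numbered 104, of which 103 lie together in bins 151 to 269. Relative to flanking bins they stood higher in gastrocnemius than in quadriceps in 9 of 9 mice. Their summed count, as a percentage of the 20 bins on each side, was 165%, 133% and 201% in WT mice 1 to 3, 116%, 137% and 123% in HSA-LR and 160%, 164% and 204% in treated gastrocnemius. In quadriceps of the same mice it was 123%, 93.8% and 113%, then 79.9%, 71.9% and 92.3%, then 97.5%, 88.6% and 104%. The mean difference was -60 percentage points ± 24.6 (SD over 9 mice). No P is given for it, since this comparison of muscles was chosen after the values were seen. HSA-LR quadriceps lay below WT quadriceps in all mice, narrowly, at 92.3% against 93.8% for the closest mice (exact permutation P = 0.1). In gastrocnemius the groups overlapped (exact permutation P = 0.2). The PEVK sum itself overlapped in quadriceps, at 2094, 2035 and 2185 pairs in WT and 1838, 2193 and 2007 in HSA-LR mice. The flanks counted 1703, 2170 and 1941 in WT and 2300, 3048 and 2174 in HSA-LR quadriceps, so the lower percentage went with higher flanks.

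Split by the annotation after the values were seen, 31 PEVK bins also lie in short partial transcripts, 42 lie in Ttn-204 but in none of those, and 30 in neither. As a percentage of the first set, the second stood at 66.6% ± 17.5 in WT, 57% ± 4.74 in HSA-LR and 77.2% ± 4.98 in treated gastrocnemius, and at 38.3% ± 2.27, 24.3% ± 6.18 and 46% ± 6.1 in quadriceps. All 9 mice were lower in quadriceps. No test was made, since the split was drawn from the data. Slow fibers differed between these muscles too, with the 7 slow fiber markers summing to 1921 to 14320 CPM in gastrocnemius and 85.8 to 2002 CPM in quadriceps, and their part in the PEVK difference was not tested. In bulk muscle, fewer fibers of a type and less RNA per fiber cannot be told apart. Relative to neighbouring bins, no Ttn bin passed the test between WT gastrocnemius and WT quadriceps (0 of 342, background 0.0231%; 31 at an unadjusted P under 0.05), and no DESeq2 or limma fit of this contrast was run.

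**Figure D5:**
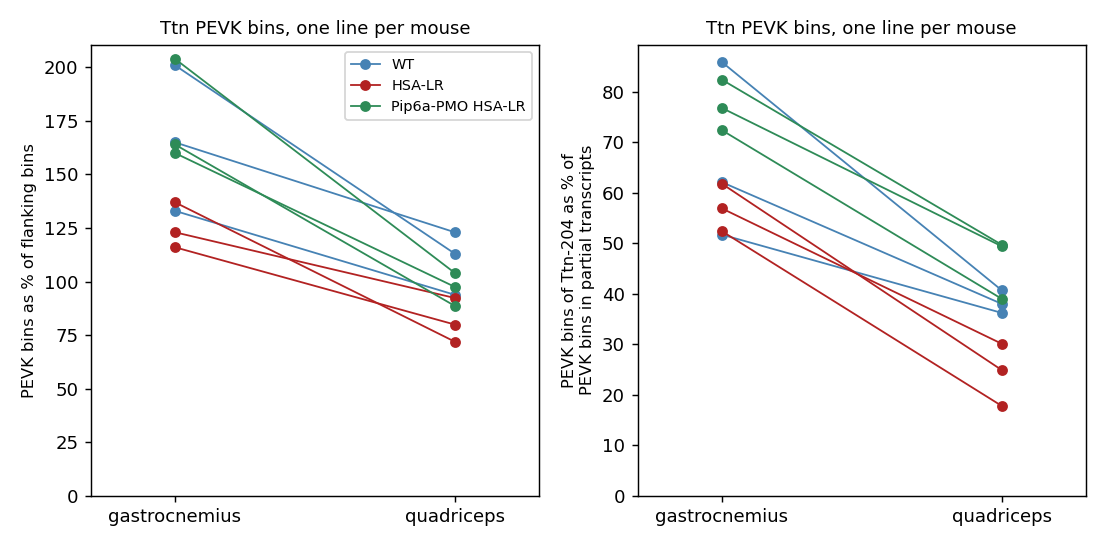
Left, the summed count of the 103 PEVK bins as a percentage of the 20 bins on each side; right, PEVK bins of Ttn-204 as a percentage of the PEVK bins in partial transcripts. A line joins the muscles of a mouse, and all 9 lines fall from gastrocnemius to quadriceps on both sides.

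As a whole, Ttn did not pass the gene-level test in any contrast. It stood at 8095 ± 337 CPM (SD, n = 3) in WT, 9686 ± 470 in HSA-LR and 7677 ± 1320 in treated gastrocnemius, and at 8335 ± 1260, 8390 ± 403 and 9144 ± 652 CPM in quadriceps. In gastrocnemius HSA-LR mice lay above both other groups without overlap, at 9391.9 to 10227.9 CPM against 7709.5 to 8333.4 CPM in WT. The log2 FC of HSA-LR against WT was 0.18 ± 0.13 (SE) in gastrocnemius and -0.11 ± 0.13 in quadriceps (edgeR, adjusted P = 0.427 and 0.661), where 15.5% and 20.3% of genes were called. Between treated and untreated HSA-LR mice the log2 FC was -0.18 and 0.28 (adjusted P = 0.451 and 0.222; background 10% and 13.8%), and between treated and WT mice 0.0035 and 0.17 (adjusted P = 0.998 and 0.637; background 1.04% and 1.41%). The genes whose log2 CPM followed Ttn most closely over the 18 libraries, among 3368 genes, were Spag9 (r = 0.939, rho = 0.928), Neb, which encodes nebulin (r = 0.915, rho = 0.905), and Larp4b (r = 0.898, rho = 0.924). These libraries share depth and coverage, and no P was computed.

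Of 48 tested genes for titin partners and for splicing factors that act on titin or on MBNL-dependent exons, 6 rose and 3 fell in HSA-LR against WT gastrocnemius, where 15.5% of all genes tested were called, and 11 rose and 5 fell in quadriceps, where 20.3% were. The gastrocnemius count is near that background. It became 14 without WT mouse 3, 15 without treated mouse 3, 4 without WT mouse 2 or HSA-LR mouse 3 and 5 without WT mouse 1 or HSA-LR mouse 1. In treated against HSA-LR mice, 3 rose and 5 fell in gastrocnemius (background 10%) and 6 rose and 4 fell in quadriceps (background 13.8%). Without single mice the gastrocnemius count became 1 to 4 (HSA-LR mouse 1, 2 or 3, WT mouse 2 or treated mouse 2) or 13 (WT mouse 3), and the quadriceps count became 3 without HSA-LR mouse 1 and 6 without HSA-LR mouse 2. The median log2 FC over the list was 0.07 and 0.12 in HSA-LR mice, beside -0.00999 and 0.0053 over all genes. Against WT mice 0 genes were called in treated gastrocnemius (edgeR, background 1.04%, with 6 at an unadjusted P under 0.05 and 2 by DESeq2) and 2 in treated quadriceps (background 1.41%), where leaving out single mice gave 0 to 2.

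Among 11 tested Z-disc partners, 2 rose in HSA-LR gastrocnemius (background 15.5% of all genes) and 3 rose and 1 fell in quadriceps (20.3%). Fhod3, a formin of the sarcomere, rose by 0.48 ± 0.08 and 0.43 ± 0.10 on the log2 scale, and Synpo2, a Z-disc actin-binding protein, by 0.32 ± 0.10 and 0.54 ± 0.11 (edgeR, adjusted P from 0.00776 to 0.0765). Flnc, which encodes filamin C, rose by 1.45 ± 0.26 in quadriceps (edgeR, adjusted P = 0.00791). Tcap, which caps the N-terminus of titin, rose in treated against HSA-LR mice by 0.45 ± 0.13 in gastrocnemius and 0.47 ± 0.09 in quadriceps (edgeR, adjusted P = 0.0782 and 0.0205).

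Among 10 I-band and N2A partners, 0 were called in HSA-LR gastrocnemius (background 15.5% of all genes) and 4 rose in quadriceps (20.3%). Fhl1, a LIM-domain protein that binds titin, rose by 1.90 ± 0.42 and the small heat shock protein gene Hspb1 by 1.61 ± 0.21 (edgeR, adjusted P = 0.018 and 0.00172). Ankrd1, an ankyrin-repeat protein that binds the N2A region, rose by 2.19 ± 0.46 from 2.48 to 5.95 CPM in WT to 12.74 to 26.11 CPM in HSA-LR mice (edgeR, adjusted P = 0.0147). Smyd2, a methyltransferase that acts with the N2A region, rose by 0.55 and in treated against HSA-LR quadriceps fell by 1.19 ± 0.13 on the log2 scale (edgeR, adjusted P = 0.0236 and 0.00224). Fhl1 and Hspb1 fell there too, by 1.37 ± 0.41 and 0.68 ± 0.20 (edgeR, adjusted P = 0.0783 and 0.0766). In treated against WT quadriceps Smyd2 was called lower (-0.64 ± 0.13) and Hspb1 higher (0.93 ± 0.20; edgeR, adjusted P = 0.076 and 0.0953), so neither stood at its WT level. In WT mouse 3, whose Y-linked genes went against its label, gastrocnemius Ankrd1 stood at 34.84 CPM beside 2.0 and 2.86 CPM in the other WT mice. The same library stood at 3315.52 CPM for Fhl1 beside 839.77 and 1312.85, at 296.49 CPM for Hspb1 beside 90.17 and 106.91, and at 433.88 CPM for Ankrd2, an ankyrin-repeat relative of Ankrd1, beside 69.54 and 103.58, and its part in the gastrocnemius count of 0 was not tested.

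Among 14 A-band and M-band partners, 2 rose and 1 fell in HSA-LR gastrocnemius (background 15.5% of all genes) and 2 rose and 2 fell in quadriceps (20.3%), shares not far from the background. Myom2, an M-band crosslinker that binds titin, rose by 0.41 ± 0.12 and 0.57 ± 0.13 (edgeR, adjusted P = 0.0559 and 0.0228), and Nbr1, a cargo receptor that binds the titin kinase, by 0.41 ± 0.10 and 0.40 ± 0.10 on the log2 scale (edgeR, adjusted P = 0.0351 and 0.0271). Trim55, a ubiquitin ligase at the M-band, fell by 0.36 ± 0.07 in gastrocnemius and 0.42 ± 0.14 in quadriceps (edgeR, adjusted P = 0.0116 and 0.0873).

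Among 13 splicing factors, 2 rose and 2 fell in each muscle of HSA-LR mice, against 15.5% of all genes called in gastrocnemius and 20.3% in quadriceps. Celf2, a CUG-binding splicing factor, stood at 52.4, 49.06 and 54.51 CPM in WT and 33.15, 34.3 and 35.44 in HSA-LR gastrocnemius and fell by 0.68 ± 0.15 there and 0.78 ± 0.14 in quadriceps (edgeR, adjusted P = 0.0203 and 0.007). Rbfox1, a splicing factor of muscle and brain, fell by 0.42 ± 0.10 and 0.48 ± 0.13, and Hnrnpa1 rose by 0.39 ± 0.12 and 0.32 ± 0.07 (edgeR, adjusted P from 0.0194 to 0.076). Srpk3, a muscle kinase of splicing factors, rose by 0.30 ± 0.08 in gastrocnemius (edgeR, adjusted P = 0.0365).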

How the data were processed

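RNA from 18 muscle samples was selected by poly(A) and made into stranded libraries. Each file the authors deposited holds 1 library as whole-number counts of read pairs in exon bins, not normalized and not pooled. The submitters' processing notes name CASAVA, HISAT and featureCounts 1.5.0 and the GRCm38 build, without roles. Where a pair spans more than 1 bin, it adds to all of them. Lines without a bin name, 2.82% to 4.14% of each library's total, were dropped. Of 46725 genes, 46520 had a symbol. 5 Ttn bins overlap an exon of another gene, and none is among the bins named.

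Bins were tested against up to 10 bins on each side (at least 10 in all) through a log offset, the median of log((count + 0.5)/geometric mean), with edgeR 4.0.16 in R 4.3.3, filterByExpr (minimum count 10) and Benjamini-Hochberg adjustment over all bins, called at an adjusted P under 0.1. Genes were tested on summed bins with TMM. The 9 libraries of a muscle were fitted together, and all 18 for contrasts between muscles. limma 3.58.1, DESeq2 1.42.0, diffSpliceDGE, other neighbour numbers, other filters, the replicate block and each mouse left out were tried as alternatives. On simulated data with 142504 bins for HSA-LR against WT gastrocnemius, the bin test recovered 76% of 2-fold and 99% of 4-fold changes, 27.7% of its calls were false (15.3% of the 59 calls with all neighbours), and 2 calls were made in an unchanged group. The changed bins were drawn only from those with enough neighbours and a mean count above a floor. Recovery in bins of lower counts was not simulated. Single values were compared by exact permutation tests. P-values within a muscle measure the spread between mice. Those of the main fits between muscles took the libraries of a mouse as independent.

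Deviations of the 2 muscles of a mouse from their group means correlated at 0.169 to 0.809 over 9 mice. The main edgeR fits between muscles had no term for the mouse, which entered only as a block in an alternative. The PEVK differences between muscles were taken within each mouse. Mice of different groups share only a number. Named bins were the 5 bins with the smallest P called in HSA-LR against WT and the 3 in each other contrast per muscle, the bins of the first, last and last but one exon and the longest bin. Annotated regions and the called listed genes, up to 4 a list, were also named, and 1 of them is not reported here. The files do not name the N2A and N2B exons, and no value is given by those names. The members and lists were chosen with earlier results of these data known. Protein sequences were not used here. Tables and figures were made in Python 3.11.15 (numpy 2.4.6, pandas 2.3.3, matplotlib 3.10.9).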

Additional observations from a re-analysis of the deposited data

How the results depend on the processing

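Exon 11, bin 378 and bin 375 kept their direction in HSA-LR against WT mice and their call in both muscles under every alternative tried. They also kept their call in treated against HSA-LR gastrocnemius. In treated against HSA-LR quadriceps the calls of exon 11, bin 378 and bin 333 were each lost under 1 alternative, though not by leaving out a mouse. Other numbers moved, and the causes were not tested. In HSA-LR against WT gastrocnemius the 13 Ttn bins called became 26 with the summed count of the neighbours and 6, all lower, with a robust spread. In treated against HSA-LR gastrocnemius the 6 became 11 with no filter on low counts, 15 with the summed count, 15 against the whole gene and 11 against the whole gene with a coverage covariate. In treated against WT gastrocnemius the 1 became 0 with limma, 3 with no filter, 8 against the whole gene and 8 with the covariate. In quadriceps the 7 for HSA-LR against WT became 3 against the whole gene and 4 with the covariate, and the 6 for treated against HSA-LR became 16 with no filter and 1 against the whole gene. The 0 for treated against WT quadriceps became 1 with 5 neighbours, 2 with DESeq2, 4 with no filter, 1 with a robust spread and 1 against the whole gene. Against the whole gene, 14 bins differed between WT muscles and 6 in the HSA-LR change between muscles.

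With the replicate block, bins called in gastrocnemius became 16, 5 and 0 and in quadriceps 8, 9 and 1 for HSA-LR against WT, treated against HSA-LR and treated against WT. Replicate numbers pair no mice of different groups, whose deviations correlated at a median of -0.0346 in gastrocnemius and 0.0137 in quadriceps. With the mouse as a block, 0 bins were called in either contrast between muscles. With the block, listed genes called in treated against HSA-LR gastrocnemius became 2 and in treated against WT quadriceps 1, and the log2 FC of Ttn in treated against WT gastrocnemius became -3.03e-05.

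Leaving out each mouse in turn gave 7 to 17, 4 to 9 and 0 to 2 Ttn bins called in gastrocnemius and 4 to 7, 4 to 9 and 0 to 3 in quadriceps, in that order, and 0 to 0 in both contrasts between muscles. The log2 FC of Ttn ranged from 0.12 to 0.21, -0.27 to -0.083 and -0.086 to 0.11 in gastrocnemius and from -0.20 to 0.038, 0.23 to 0.36 and 0.079 to 0.32 in quadriceps. The sign for HSA-LR against WT quadriceps turned only without WT mouse 2. The share of the 98 bins at the 5′ end differed by 0.0193 to 0.168, -0.141 to 0.261 and -0.0645 to 0.338 percentage points in gastrocnemius and by 0.475 to 0.568, -0.447 to -0.38 and 0.0519 to 0.149 in quadriceps, and both negative gastrocnemius values came without treated mouse 3. Listed genes called ranged from 4 to 15, 1 to 13 and 0 to 1 in gastrocnemius and from 11 to 19, 3 to 11 and 0 to 2 in quadriceps.

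DESeq2 called 14, 15 and 2 listed genes in gastrocnemius and 16 for treated against HSA-LR quadriceps. In treated against WT quadriceps 1 was called by the largest bin of each gene and 1 with DESeq2 size factors. All alternatives for listed genes, like the robust spread, were chosen after seeing the data. The largest bin gave a Ttn log2 FC of -0.017 for treated against WT gastrocnemius. Of bins 1 to 3, uncalled in the main fit, bin 1 changed sign in both muscles and bins 2 and 3 in quadriceps alone. In HSA-LR against WT gastrocnemius bin 3 kept its sign and was called in 3 of the other settings, which include single mice left out. Bin 1 in HSA-LR gastrocnemius became 0.17 with the coverage covariate and ranged from -0.15 to 0.10 without single mice. In quadriceps, with 25 neighbours, the summed count, and without single mice, bin 2 became -0.50 and -0.038 and ranged from -0.058 to 0.093, and bin 3 became -0.41 and -0.0070 and ranged from -0.058 to 0.073. Bin 1 there became -0.48 and -0.063, -0.00021 with limma, -0.021 against the whole gene, -0.024 with the covariate, and ranged from -0.16 to 0.15. The depth of 13 to 30 pairs on exon 11 in HSA-LR gastrocnemius limits the precision of its level there.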

Other observations

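Single libraries stood apart in isolated bins that no comparison called. Bin 332 (exon 49) counted 772 in gastrocnemius of treated mouse 1 and 35 to 88 in the other libraries. Bin 365 (exon 21) counted 447 in gastrocnemius of treated mouse 3 and 58 to 167 elsewhere. Bin 101 (exon 253) counted 229 in quadriceps of HSA-LR mouse 2 and 42 to 101 elsewhere.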
